A study of Mus musculus with 3 samples.

Results

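The cells described are those with a Cd8 identity and a Cd8 class in the authors' cell annotation, split by hashtag number. The class held 834 cells in hashtag sample 2 and 867 in hashtag sample 3, 1701 cells of 5564 in the whole table. The cells came from B16F10 tumors, grown from a transplantable mouse melanoma line, in 10 mice whose tumors were pooled, so no animal can be followed. Congenic T cells, either purified CD4 cells with CD45.1 or purified CD8 cells with CD45.2, were injected into the tail vein 1 day after the tumor cells. On day 11 the tumors were resected and 4 populations were sorted, namely CD45.1 cells with CD4 alone or with CD8 as well, and CD45.2 cells with CD8 alone or with CD4 as well. Each received its own hashtag, and about 6200 pooled cells went into 1 droplet run with 5′ chemistry. Mice are labelled untreated, and the labels do not tie a hashtag number to a sorted population. The comparison therefore asks how the Cd8 class differed between these 2 numbers, not between named sorts.

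Cytotoxic T cells carry the co-receptor CD8, an alpha and a beta chain that bind MHC class I on target cells. On meeting antigen they divide, secrete granzymes, interferon gamma and chemokines, and in tumors often gain inhibitory receptors. Macrophages and monocytes, which share the tumor with them, are known for lysozyme, complement C1q and Fc receptors. Dendritic cells and many macrophages also present antigen on MHC class II, which mouse T cells make little of.

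The Cd8 class of sample 2 held 3931907 UMIs (unique molecular identifiers, which count captured RNA molecules) with a median of 3984 a cell, and that of sample 3 held 4603921 with a median of 4430. Median mitochondrial shares were 1.34% and 1.35%. Levels are CPM, UMIs summed over the cells of a sample and scaled to a common total that leaves out receptor and immunoglobulin genes. Both samples are parts of 1 library of 1 pool and neither has a replicate. There was thus no test across samples, and all intervals are exact 95% intervals for counting error only, which leave out the spread between cells. A gene with at least 20 UMIs over both samples counted as measured. A measured gene was called higher or lower, a rule of size, when the ratio reached 1.5-fold and its interval did not hold 1.

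The largest differences lay in genes of macrophages and monocytes, which were higher in sample 2. Among them were the 3 chains of complement C1q, which starts the classical complement pathway. Their genes neighbour each other on chromosome 4 (GRCm38), with C1qb at chr4:136880126-136886200, C1qc at chr4:136889801-136892936 and C1qa at chr4:136895916-136898844. The windows of 250 bases before annotated starts of C1qb (chr4:136886201-136886450, minus strand) and C1qc (chr4:136892915-136893164, minus strand) are shown because these neighbours stood apart together. They come from RefSeq (GRCm38.p6), which gave a window for 2 of the 3 genes. Capitals mark GAGGAA on either strand (TTCCTC on the other), a core of the type bound by PU.1, a factor of myeloid cells.
C1qb: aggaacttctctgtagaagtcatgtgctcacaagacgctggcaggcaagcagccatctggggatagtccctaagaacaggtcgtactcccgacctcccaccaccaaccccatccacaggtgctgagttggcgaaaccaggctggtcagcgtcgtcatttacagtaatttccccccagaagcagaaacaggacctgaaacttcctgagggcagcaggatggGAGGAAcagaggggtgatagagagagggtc
C1qc: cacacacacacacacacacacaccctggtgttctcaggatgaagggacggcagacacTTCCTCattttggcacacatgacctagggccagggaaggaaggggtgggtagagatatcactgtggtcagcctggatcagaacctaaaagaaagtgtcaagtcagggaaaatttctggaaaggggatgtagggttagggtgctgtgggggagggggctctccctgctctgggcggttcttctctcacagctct
Each window held 1 match, beginning 30 bases before the start in C1qb and 193 bases before it in C1qc. Of 32851 mouse promoter windows of the same length 7639 (23.3%) held the motif, so a match is common and only describes these letters.

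C1qb stood at 111 CPM (101 to 122) in sample 2 and 2.83 CPM (1.51 to 4.85) in sample 3, a 39.2-fold difference (22.7 to 74.2). C1qa stood at 82.2 and 1.09 CPM (75.4-fold, 32.0 to 234), and C1qc at 68.4 and 1.09 CPM (62.8-fold, 26.6 to 195). All 3 chains were thus near 0 in sample 3, with 13, 5 and 5 UMIs in all. In sample 2 few cells carried them, since 355 of the 435 C1qb UMIs lay in 5 cells. Cells with at least 2 C1qb UMIs were 1.92% (16 cells) against 0.115% (1 cell). With 1 UMI or more they were 2.28% against 1.15%, and in the Cd4 class, at median depths of 3325 and 3372 UMIs, 1.59% against 0.990%. The share in sample 3 was thus near that of the Cd4 class, and where these single UMIs come from was not tested. Apoe, which encodes a lipid carrier made by macrophages, was 9.47-fold higher (6.91 to 13.3) at 90.8 against 9.59 CPM. Lyz2, the macrophage lysozyme, was 3.51-fold higher (3.24 to 3.80) at 621 against 177 CPM. Lyz2 was less concentrated in sample 2, where 5 cells held 826 of 2435 UMIs, than in sample 3, where 5 cells held 663 of 813. Without these 5 cells of each sample it was 12.6-fold higher (10.6 to 14.9).

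All 13 measured macrophage or monocyte markers were called higher in sample 2, where 5.15% of all 10186 measured genes were called higher and 1.03% lower (7.97% and 2.84% by the fold alone). Their median log2 ratio, computed with 5 CPM added to both levels, was 1.78, against a median of 0.01 over all measured genes. Csf1r, the receptor of the growth factor that maintains macrophages, was 4.10-fold higher (2.81 to 6.11), and Fcgr3, an Fc receptor, 4.39-fold (3.33 to 5.87). Tyrobp and Fcer1g, signalling adaptors of myeloid and NK cells, were 2.63-fold (2.38 to 2.92) and 3.73-fold (3.34 to 4.16) higher. Adgre1, which encodes F4/80, had 30 UMIs in sample 2 and 3 in sample 3, a ratio of 11.7 with a lower bound of 3.64, and Ms4a7 had 38 and 2 (22.2-fold, 5.75 to 190). Summed over the list the level was 1879 CPM in sample 2 and 482 CPM in sample 3. In hashtag samples 1 and 4 it was 3359 and 2808 CPM, so sample 3 was the lowest of the 4 numbers.

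**Figure D1:**
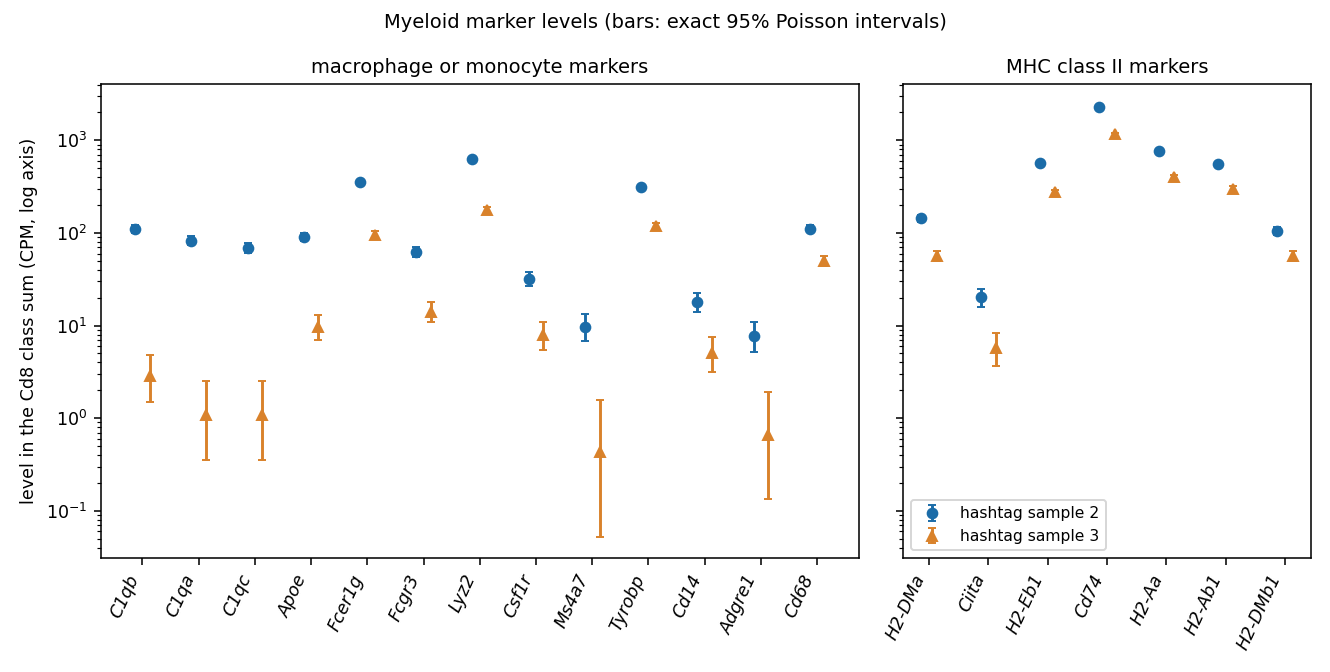
Levels of the 13 macrophage or monocyte markers (left) and 7 MHC class II markers (right) in the Cd8 class sums, in CPM on a log axis, with exact 95% Poisson intervals. Circles are hashtag sample 2 and triangles hashtag sample 3. Sample 2 lies above sample 3 for every gene, from C1qb at 111 against 2.83 CPM to Cd68 at 112 against 49.7 CPM.

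Genes of antigen presentation on MHC class II went the same way. All 7 were called higher in sample 2, with a median log2 ratio of 0.99. Cd74, the invariant chain that guides class II molecules to peptide loading, stood at 2300 against 1157 CPM (1.99-fold, 1.92 to 2.06). The alpha chain gene H2-Aa stood at 768 against 402 CPM (1.91-fold, 1.80 to 2.02), the beta chain gene H2-Eb1 at 568 against 275 CPM (2.07-fold, 1.93 to 2.22), and Ciita, the master activator of these genes, at 20.2 against 5.67 CPM (3.56-fold, 2.26 to 5.77). The remaining members H2-Ab1, H2-DMb1 and H2-DMa were 1.82-fold, 1.85-fold and 2.53-fold higher. Of 10 measured dendritic cell markers 5 were called higher, with a median of 0.34. These were Ccl22, a chemokine of mature dendritic cells (29.7-fold, 13.3 to 82.1, with all 152 UMIs of sample 2 in 5 cells or fewer), Batf3 (3.29-fold, 1.97 to 5.70), Plbd1 (1.69-fold, 1.40 to 2.04), Naaa (1.65-fold, 1.32 to 2.08) and Cd209a (1.56-fold, 1.30 to 1.88). Flt3, the receptor for the growth factor of dendritic cells, had 9 UMIs in sample 2 and 14 in sample 3, and Xcr1, a receptor of cross-presenting dendritic cells, had 7 and 15.

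The 15 genes named for the highest log2 ratios were mostly of the same kind. They were Lyz2, Fcer1g, Fcgr3, Clec4a1, Lgmn, Fcgr1, Maf, App, Zeb2, Ccl6, Fcgr2b, Ly86, Ctsh, Alox5ap and Ifitm3. Clec4a1, a lectin receptor of myeloid cells, was 11.6-fold higher (6.56 to 22.4), the lysosomal protease gene Lgmn 4.89-fold (3.78 to 6.40), and the high-affinity Fc receptor gene Fcgr1 4.52-fold (3.30 to 6.30). Maf, a transcription factor of macrophages and of some T cells, was 4.52-fold higher (3.28 to 6.32). Zeb2, a transcriptional repressor made in effector T cells and myeloid cells, was 4.13-fold higher (3.08 to 5.61).

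Many of the same genes followed a set of cells. Barcodes that reached 10 UMIs over the macrophage and monocyte list made up 8.75% of the class in sample 2 (73 of 834, 6.92 to 10.9) and 3.69% in sample 3 (32 of 867, 2.54 to 5.17). After each cell was thinned to 2000 UMIs, which left out 61 and 35 shallower cells, the shares were 5.43% (3.94 to 7.27) and 1.44% (0.747 to 2.51). In samples 1 and 4 the unthinned shares were 18.1% and 10.6%. These cells were deep, with medians of 7096 and 7363 UMIs, and held 14.9% and 5.55% of all UMIs of the class. Of them, 46.6% in sample 2 and 43.8% in sample 3 had a UMI of a CD3 gene, and 26.0% and 40.6% had a UMI of Cd8a or Cd8b1. Whether such a barcode holds 1 cell or more was not tested. Without all cells with at least 2 of these marker UMIs (737 and 806 cells kept) 134 genes rather than 525 were called higher. Zeb2 then stood at 1.09-fold (0.629 to 1.88), while Cd74, at 70.0 against 32.8 CPM, was still 2.13-fold higher (1.72 to 2.66). At low levels H2-Aa stood at 14.4 against 3.86 CPM (3.72-fold, 2.07 to 7.04) and H2-Eb1 at 15.9 against 2.90 CPM (5.50-fold, 2.89 to 11.3). H2-Ab1 was 3.31-fold higher (1.88 to 6.06), Maf 2.21-fold (1.48 to 3.33) and Ifitm3 2.18-fold (1.68 to 2.83). H2-DMa stood at 0.827-fold (0.612 to 1.11). Lyz2, Fcer1g and Fcgr3 had too few UMIs to count as measured, which follows from the rule, as they are on the list that set the cells apart. A sort for CD4 or CD8 T cells, given in the labels, stands before these shares.

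The myeloid marker cells themselves differed in content between the samples, shown here with their markers as a description since some of these genes set the cells apart. C1qb was found in 18 of the 73 cells in sample 2 and in 1 of the 32 in sample 3. Chil3, a chitinase-like gene of monocytes, had 127 UMIs in 14 of the cells of sample 2 and 1 UMI in sample 3. Ccl7, a chemokine that draws monocytes, had 216 UMIs in 16 cells against 1 UMI, and Ccl12 had 106 UMIs in 15 cells against 0 UMIs. Mrc1, the macrophage mannose receptor, stood at 193 against 27.4 CPM of these cells (7.02-fold, 3.30 to 17.9). Most dendritic cell and MHC class II genes looked at lay the other way within them. H2-Aa stood at 5010 against 6678 CPM (0.750-fold, 0.707 to 0.797), Plbd1 at 460 against 709 CPM (0.649-fold, 0.535 to 0.788), and Flt3 was found in 5 of 73 cells against 8 of 32. The chemokine genes Ccl22 and Ccl17 of mature dendritic cells did not follow, with Ccl22 at 152 UMIs in 4 cells against 5 in 1 (13.2-fold, 5.54 to 41.3) and Ccl17 at 142 UMIs in 6 cells against 13 in 2 (4.75-fold, 2.69 to 9.14). Lyz2 stood at 4124 against 3110 CPM (1.33-fold, 1.22 to 1.44) and Tyrobp at 2049 against 2056 CPM (0.997-fold, 0.899 to 1.11), so C1qb, Ccl7 and Ccl12 differed far more than these. Not all genes split that way. The chemokine genes Ccl6 (1.42-fold, 1.23 to 1.64) and Ccl9 (1.61-fold, 1.23 to 2.12) differed less. The markers Apoe (3.72-fold, 2.69 to 5.28) and Adgre1 (4.35-fold, 1.35 to 22.3) differed more than Lyz2. Over the whole class Cxcl9, an interferon-induced chemokine, had 184 UMIs in sample 2 and 0 in sample 3, at least 71.8-fold higher against a floor of 3 counts in sample 3, and 169 of the 184 lay in 1 cell.

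The label was checked against the CD8 and CD3 genes. Cd8a and Cd8b1, the genes of the alpha and beta chains, stood at 512 and 1555 CPM in sample 2 and at 652 and 1781 CPM in sample 3. Cd8a was 0.786-fold (0.742 to 0.832) and Cd8b1 0.874-fold (0.845 to 0.903) of its level in sample 3, and neither was called by size. Cells with no UMI of either gene were 14.0% of the class in sample 2 (117 of 834, 11.7 to 16.6) and 4.15% in sample 3 (36 of 867, 2.92 to 5.70), with 14.0% and 4.69% after thinning. In samples 1 and 4 they were 35.1% and 13.3%. Of these cells 60 in sample 2 and 16 in sample 3 also had fewer than 2 UMIs of macrophage or monocyte markers. Cells with no UMI of Cd3d, Cd3e or Cd3g were 6.59% (5.01 to 8.50) and 2.77% (1.78 to 4.09). Thus the class label was borne by a CD8 transcript in 86.0% of cells in sample 2 and 95.8% in sample 3. Runx3, which directs cells to the CD8 lineage, stood at 176 against 197 CPM (0.896-fold, 0.810 to 0.990). Zbtb7b, the gene of the helper lineage regulator ThPOK, had 51 UMIs in both samples (1.17-fold, 0.778 to 1.76). Cd4 had 23 UMIs in sample 2 and 1 in sample 3 (26.9-fold, 4.37 to 1109), but none of the class's cells in samples 2 and 3 had UMIs of both Cd4 and Cd8a, while all 108 and 41 Tdp cells of Cd8 identity did. The classes thus split on these genes, and the Cd4 level is no finding.

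**Figure D2:**
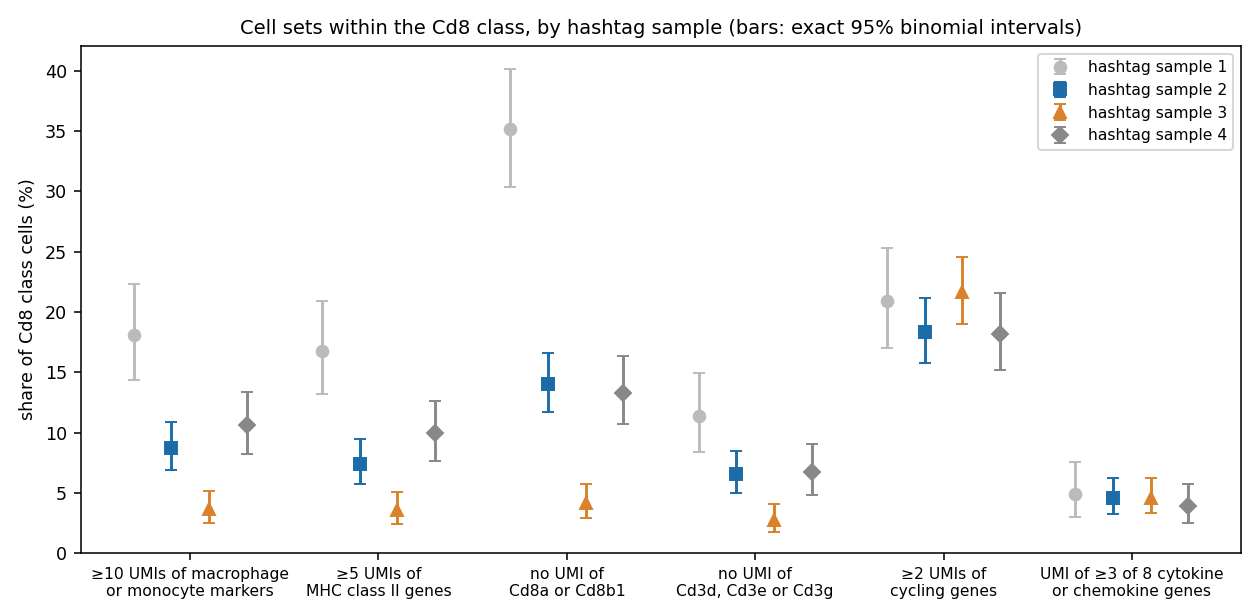
Share of Cd8 class cells, in percent, that fall in each of 6 sets, by hashtag sample, with exact 95% binomial intervals. Sample 3 (triangles) has the lowest share of myeloid marker cells (3.69%) and of cells with no CD8 UMI (4.15%), while cycling and cytokine-rich shares overlap between samples 2 and 3.

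To read the T cell genes apart from these cells, a T cell subset was set up after the data had been seen. It kept cells with a UMI of Cd8a or Cd8b1, fewer than 2 macrophage or monocyte, 5 MHC class II and 2 NK receptor UMIs. It held 668 cells of sample 2 (80.1%) and 774 of sample 3 (89.3%), so myeloid, MHC class II, NK and CD8 levels within it follow from its rule. In it 1.24% of 9543 measured genes were called higher in sample 2 and 1.65% lower. Of 288 measured members of the T cell programme lists 34 were called higher and 2 lower in all cells. In the subset 8 of 274 were called higher and 14 lower, so higher calls made up most of the count in all cells and the lesser part in the subset. Cd8a and Cd8b1 stood there at 0.920-fold (0.866 to 0.976) and 1.02-fold (0.984 to 1.05).

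**Figure D3:**
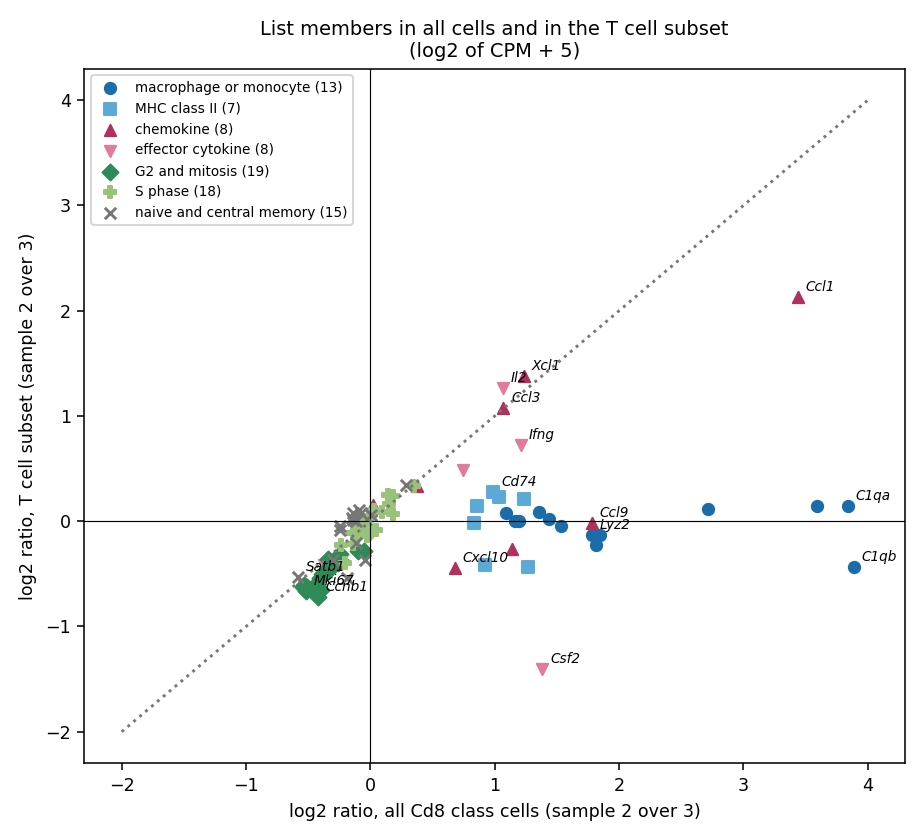
Log2 ratio (sample 2 over sample 3, 5 CPM added) of measured members of 7 lists in all Cd8 class cells (horizontal axis) and in the T cell subset (vertical axis); the dotted line marks equal values. Most myeloid markers lie near 0 on the vertical axis, which the subset rule fixes, while Xcl1, Il2 and Ccl3 lie near the dotted line and Csf2 changes side.

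Genes of secreted cytokines and chemokines were higher in sample 2 as sums. Of 8 measured effector cytokine genes 4 were called higher and none lower (median 0.35), and of 8 measured chemokine genes 6 were called higher (median 1.10). Xcl1 (chr1:164931644-164935522), a chemokine that draws cross-presenting dendritic cells, stood at 155 against 62.8 CPM (2.46-fold, 2.14 to 2.84). Ifng, the gene of interferon gamma, stood at 137 against 56.0 CPM (2.44-fold, 2.10 to 2.84). Il2, a T cell growth factor, stood at 141 against 67 UMIs (2.46-fold, 1.83 to 3.35) and Ccl3, a chemokine for monocytes and T cells, at 425 against 225 UMIs (2.21-fold, 1.88 to 2.61). Tnf stood at 48.0 against 26.6 CPM (1.80-fold, 1.43 to 2.28), Csf2, the gene of GM-CSF, at 49.5 against 15.9 CPM (3.11-fold, 2.37 to 4.13), and Ccl1 at 61.0 against 1.09 CPM (56.0-fold, 23.6 to 174). Ccl4 stood at 332 against 255 CPM (1.31-fold, 1.21 to 1.41), and Ccl5, the most abundant chemokine gene of the list, at 8471 against 8357 CPM (1.01-fold, 0.999 to 1.03). The other 3 higher chemokine genes were Ccl9, Cxcl10 and Cxcl16. Cxcl10 was 1.67-fold higher (1.39 to 2.00) in all cells but stood at 0.706-fold (0.547 to 0.907) in the T cell subset.

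These sums rested on very few cells. A single cell of sample 2 held 407 of the 606 Xcl1 UMIs, 90 of the 141 Il2 UMIs, 225 of the 425 Ccl3 UMIs and 641 of the 1303 Ccl4 UMIs. It had UMIs of all 8 genes examined (Xcl1, Ifng, Il2, Ccl3, Ccl4, Ccl1, Tnf and Csf2), which made up 1592 of its 9616 UMIs, with 16 UMIs of Cd8a and Cd8b1. Another cell of sample 2 held 183 of the 194 Csf2 UMIs, 164 of the 239 Ccl1 UMIs, 148 of the 535 Ifng UMIs and 57 of the 90 UMIs of the granzyme gene Gzmc. It had 31 UMIs of CD3 genes and none of Cd8a, Cd8b1 or the macrophage markers among its 8218 UMIs. In sample 3 the cell with the most UMIs of these genes had 6 of the 8, with 431 UMIs of Ccl4, 59 of Ccl3, 49 of Ifng and 31 of Xcl1.

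Without the 5 cells with the most UMIs of a gene in each sample, Xcl1 stood at 0.675-fold (0.518 to 0.876), Il2 at 0.867-fold (0.561 to 1.33), Ccl3 at 1.22-fold (0.916 to 1.62), Ifng at 1.30-fold (1.04 to 1.62) and Tnf at 1.39-fold (1.04 to 1.86). None of these 5 genes passed 1.5-fold higher that way. Ccl1 differed from them in part. Although 229 of its 239 UMIs in sample 2 lay in 5 cells, a UMI was found in 1.80% of cells (1.01 to 2.95) against 0.577% (0.188 to 1.34). These intervals overlap. Without the 5 richest cells Ccl1 stood at 2.55 CPM in sample 2 against 0 in sample 3, where 5 cells held all 5 UMIs. In the T cell subset it was 21.3-fold higher (7.93 to 80.8). There the cell with UMIs of all 8 genes held 51 Ccl1 UMIs, and 12 cells against 4 had a Ccl1 UMI. The share of cells with a UMI was 6.59% against 9.23% for Xcl1, 5.88% against 7.61% for Ccl3, 5.28% against 6.46% for Il2, 15.9% against 14.6% for Ifng and 10.4% against 9.23% for Tnf. Thinned to 2000 UMIs it was 3.88% (2.63 to 5.49) against 5.05% (3.66 to 6.76) for Xcl1 and 9.96% (7.94 to 12.3) against 7.45% (5.76 to 9.45) for Ifng. Cells with a UMI of at least 3 of the 8 genes were 4.56% of the class in sample 2 (38 cells, 3.24 to 6.20) and 4.61% in sample 3 (40 cells, 3.32 to 6.23). In the Cd4 class, as a measure of Xcl1 outside CD8 cells, 1.32% and 1.98% of cells had an Xcl1 UMI. Median depths there were 3325 and 3372 UMIs.

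**Figure D4:**
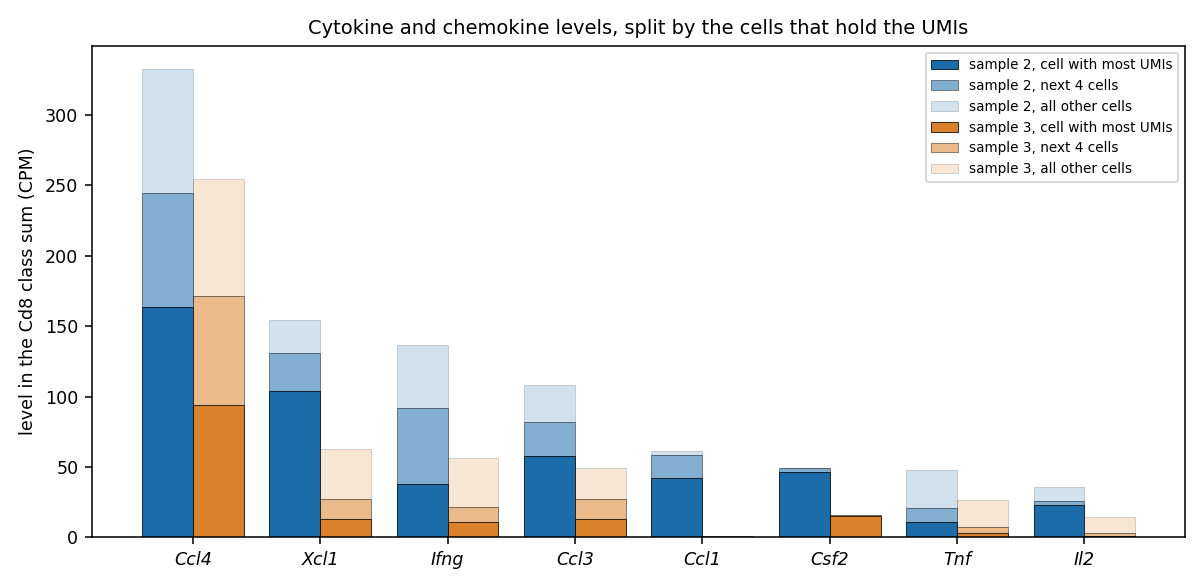
Levels of 8 cytokine and chemokine genes in the Cd8 class sums, in CPM, with sample 2 in blue and sample 3 in orange. Each bar is split into the cell with the most UMIs of that gene (dark), the next 4 cells (middle) and all other cells (light). The dark part makes up most of the Xcl1, Ccl3, Il2, Ccl1 and Csf2 bars of sample 2.

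Within the T cell subset Xcl1 was 2.72-fold (2.34 to 3.17), Il2 2.84-fold (2.09 to 3.89), Ccl3 2.22-fold (1.86 to 2.65) and Ifng 1.70-fold (1.43 to 2.03) higher, since the first of those cells belongs to it. There 22 cells of sample 2 (3.29%, 2.08 to 4.94) and 37 of sample 3 (4.78%, 3.39 to 6.53) had UMIs of at least 3 of the 8 genes. These cells held 92.2% of the Xcl1 UMIs in sample 2 and 36.9% in sample 3. Csf2 changed side, at 3.79 against 18.3 CPM (0.207-fold, 0.0992 to 0.393), with the other cell left out and 68 of the 73 Csf2 UMIs of sample 3 in 1 cell.

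Cytotoxic granule genes were mostly at like levels. Of 14 measured members 3 were called higher and none lower (median -0.04). These were Gzmc (9.58-fold, 5.11 to 19.9, with 88 of 90 UMIs of sample 2 in 5 cells), Ctsc, which activates granzymes and is also high in myeloid cells (1.93-fold, 1.71 to 2.17), and Gzma, a granzyme also high in NK cells (1.55-fold, 1.42 to 1.69). Gzma stood at 1.41-fold (1.28 to 1.56) without its 5 richest cells, and Ctsc at 1.13-fold (0.954 to 1.33) in the T cell subset. Gzmb, the main granzyme of effector cells, stood at 334 against 410 CPM (0.816-fold, 0.760 to 0.876), and Prf1, the gene of perforin, at 53.8 against 55.4 CPM (0.973-fold, 0.806 to 1.17). NK markers stood beside them, with 6 of 9 called higher, among them Ncr1 (4.79-fold, 2.44 to 10.3), Klra4 (2.87-fold, 1.38 to 6.42) and Klrb1c (1.95-fold, 1.10 to 3.53), and Tyrobp, Fcer1g and Gzma, which other lists share. The other 3, Klra8, Klre1 and Klra9, were not called, and the lowest log2 ratio on the list was -0.24. Cells with at least 2 UMIs of NK receptor markers were 2.64% (1.66 to 3.97) and 2.31% (1.41 to 3.54). Without these cells Gzma stood at 1.18-fold (1.07 to 1.31), no longer called, while Gzmc at 9.24-fold (4.91 to 19.2) and Ctsc at 1.92-fold (1.70 to 2.17) were called as before.

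Genes of late cell division stood at lower levels in sample 2, mostly short of the rule of size in all cells. All 19 members of the G2 and mitosis list had ratios below 1, with a median of -0.39, and Plk1, a kinase that drives mitotic entry, was the 1 member that passed, at 29.9 against 45.8 CPM (0.652-fold, 0.516 to 0.822). Mki67, the proliferation marker, stood at 128 against 186 CPM (0.690-fold, 0.616 to 0.771). The centromere motor gene Cenpe stood at 36.2 against 53.8 CPM (0.673-fold, 0.544 to 0.831), and the spindle protein gene Nusap1 at 54.6 against 81.5 CPM (0.670-fold, 0.564 to 0.795). Summed over the list the level in all cells was 1394 CPM in sample 2 and 1815 CPM in sample 3. In samples 1 and 4 it was 1719 and 1310 CPM, so sample 3 was the highest and sample 2 was not the lowest. In the T cell subset the median was -0.50 and 9 of the 19 were called lower, where 1.65% of all genes were. They included Ccnb1, the cyclin of mitotic entry (0.556-fold, 0.408 to 0.749), Ube2c (0.627-fold, 0.559 to 0.703), Prc1 (0.621-fold, 0.497 to 0.773) and Mki67 (0.621-fold, 0.544 to 0.708). The list sum there was 1240 against 1793 CPM (0.692-fold, 0.664 to 0.720).

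Genes of DNA replication did not follow. Of 18 S phase genes none was called in either direction, in all cells or in the subset, with medians of -0.01 and -0.02, and their subset sum was 1566 against 1578 CPM (0.992-fold, 0.955 to 1.03). In all cells they ran from Dut, which clears dUTP (0.846-fold, 0.771 to 0.930), to the helicase subunit gene Mcm3 at 1.30-fold. Cells with at least 2 UMIs of 6 cycling genes were 18.3% of the class in sample 2 (15.8 to 21.1) and 21.7% in sample 3 (19.0 to 24.6), or 14.4% (12.0 to 17.0) and 16.3% (13.9 to 19.0) at 2000 UMIs. In the T cell subset they were 16.3% and 21.3%. Among these cycling cells of the subset, which G2 and mitosis genes themselves pick out, the mitosis sum was 4603 against 5171 CPM (0.890-fold, 0.854 to 0.927). The S phase sum, which the pick did not use, was 4109 against 3369 CPM (1.22-fold, 1.16 to 1.28). In the remaining cells the mitosis sum stood at 84.7 against 80.7 CPM (1.05-fold, 0.857 to 1.28). The 6 cycling genes are on the mitosis list, so the pick holds this sum low and it does not show where the difference lies. In the Cd4 class Mki67 stood at 122 against 188 CPM and Ube2c at 147 against 273 CPM, also lower in sample 2. Those cells are from the same library and come to 755 and 202.

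**Figure D5:**
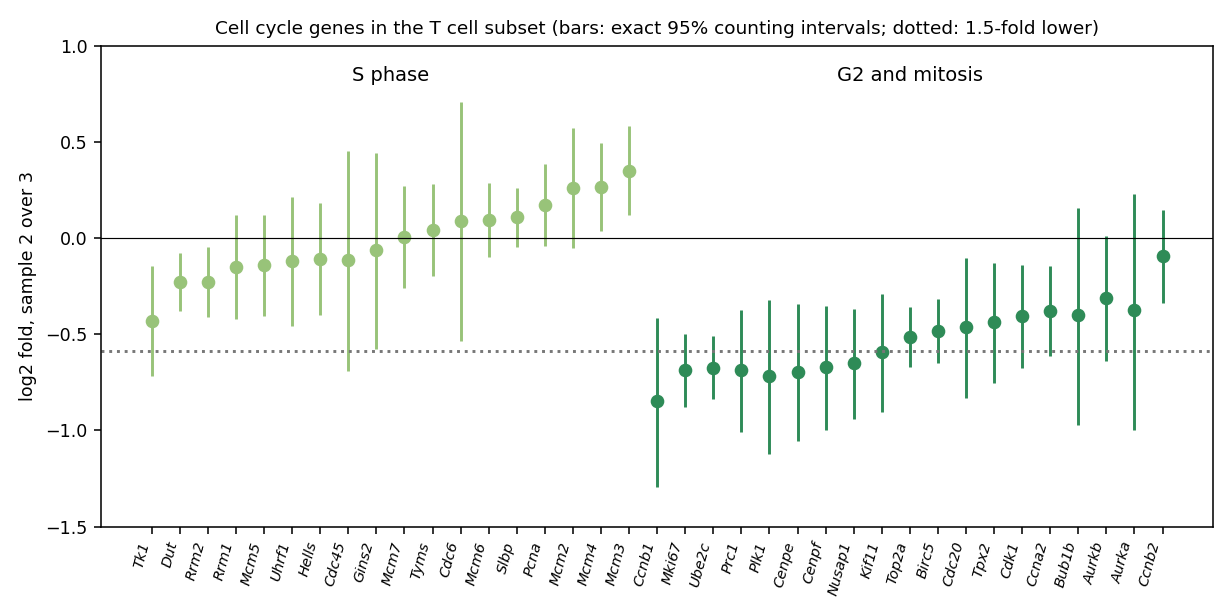
Log2 fold (sample 2 over sample 3) of 18 S phase genes and 19 G2 and mitosis genes in the T cell subset, with exact 95% counting intervals; the dotted line marks 1.5-fold lower. The S phase genes lie on both sides of 0 and all 19 mitosis genes lie below it, from Ccnb1 at 0.556-fold.

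The 15 genes named for the lowest log2 ratios held 4 of these mitosis genes (Plk1, Cenpe, Nusap1 and Mki67) and 3 histone genes made in S phase. Hist1h2ap stood at 0.573-fold (0.442 to 0.739), Hist1h2ab at 0.651-fold (0.513 to 0.823) and Hist1h1b at 0.671-fold (0.597 to 0.754). Histone genes of this cluster have near-identical copies among which reads can be split, so their values are uncertain. Satb1 (chr17:51736187-51833290), a chromatin organiser high in naive T cells, was lower in sample 2 at 49.8 against 76.9 CPM (0.647-fold, 0.540 to 0.773). It was found in 14.0% (11.7 to 16.6) against 21.6% (18.9 to 24.5) of cells, and in 8.54% (6.66 to 10.7) against 11.3% (9.23 to 13.6) at 2000 UMIs. Here the difference was spread over cells, as the 5 richest cells held 26 of 195 and 34 of 353 UMIs, and without them the ratio was 0.620-fold (0.512 to 0.750). In the T cell subset it stood at 0.675-fold (0.554 to 0.820), short of the rule of size. In the Cd4 class Satb1 stood at 77.7 against 68.5 CPM, and in the Cd8 class of samples 1 and 4 at 35.1 and 54.0 CPM.

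The other lower genes were of mixed function. Cdk8, a kinase of the Mediator complex, stood at 14.5 against 27.2 CPM (0.534-fold, 0.383 to 0.736), with a UMI in 6.47% against 13.3% of cells. Tnfsf8, the ligand of CD30, stood at 17.4 against 27.9 CPM (0.622-fold, 0.456 to 0.841), and Mis18a, which helps load centromeric histone, at 37.5 against 56.7 CPM (0.662-fold, 0.537 to 0.813). Erap1, which trims peptides for MHC class I, stood at 49.2 against 71.7 CPM (0.687-fold, 0.572 to 0.823), short of the rule of size. Nol9, Bag4 and Wipf2 stood at 0.633-fold to 0.638-fold. Cdk8 at 0.551-fold (0.375 to 0.794) and Tnfsf8 at 0.575-fold (0.407 to 0.804) were also called in the T cell subset.

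Naive and central memory genes other than Satb1 did not pass. Of 15 measured, Satb1 was called lower and none higher (median -0.14). Tcf7, the factor of stem-like T cells, stood at 165 against 182 CPM (0.905-fold, 0.815 to 1.00), and Il7r at 272 against 301 CPM (0.903-fold, 0.833 to 0.979). Of 14 measured inhibitory receptor and exhaustion genes 1 was called higher and none lower (median -0.01). That was Havcr2, the gene of TIM-3, with 102 against 78 UMIs (1.53-fold, 1.13 to 2.08). It was 1.81-fold higher (1.28 to 2.58) in the T cell subset, and was found in 9.35% (7.46 to 11.5) against 6.69% (5.12 to 8.56) of cells. At 2000 UMIs the shares were 5.30% and 1.92%, and at 1000 UMIs 2.73% and 1.52%. Pdcd1, the gene of PD-1, stood at 215 against 231 CPM (0.932-fold, 0.850 to 1.02), Lag3 at 0.800-fold (0.677 to 0.943) and Tox at 0.983-fold (0.857 to 1.13).

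Of 10 measured regulatory T cell genes 4 were called higher and none lower (median 0.17). Foxp3, the factor that defines regulatory T cells, had 54 UMIs in sample 2 and 20 in sample 3 (3.16-fold, 1.86 to 5.58, and 7.73-fold, 3.00 to 25.4, without its 5 richest cells), in 3.24% against 1.15% of cells, and 2.92-fold (1.20 to 7.83) in the T cell subset. Its 5 richest cells held 21 of 54 UMIs in sample 2 and 15 of 20 in sample 3, so the ratio without them rests on few UMIs. In the Cd4 class Foxp3 stood at 148 and 158 CPM, against 13.8 and 4.36 CPM here. Tnfrsf4, the gene of the costimulatory receptor OX40, was 2.23-fold higher (1.79 to 2.79) in all cells but 0.880-fold (0.629 to 1.22) in the subset. Il1r2 (2.22-fold, 1.60 to 3.11) and Nrp1 (1.55-fold, 1.20 to 2.00) were not called in the subset. Cd40lg, a helper ligand, was 1.58-fold higher (1.19 to 2.12) in all cells. Of 15 AP-1 and heat shock genes 3 were called higher, namely Atf3, Hspa1a and Hspa1b. Hspa1b, an inducible chaperone, was 2.48-fold higher (1.62 to 3.88) with 40 of 70 UMIs in 5 cells in sample 2 and 25 of 33 in sample 3. It was 4.39-fold higher (1.97 to 11.1) without these cells and 8.95-fold (3.76 to 25.9) in the subset. Hspa1a is a near-identical copy, so both are uncertain.

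Over all measured genes 5.15% were called higher in sample 2 and 1.03% lower, so 1 call among 14 to 16 members is near that share. The calls in the remaining programmes were all higher in sample 2. They were 2 of 18 type I interferon genes (Ifi44 and Oasl2), 2 of 13 interferon gamma response genes (Gbp2 and Iigp1), 2 of 14 chemokine receptor genes (Ccr1 and Ccr2), 1 of 16 glycolysis and hypoxia genes (Hk2), 1 of 14 S100, galectin and annexin genes (Anxa1), 2 of 12 NK receptor genes (Klra7 and Klrb1c), and 1 of 15 effector and memory transcription factors (Zeb2). Of 7 measured CD4 lineage and helper genes 3 were called (Cd40lg, Tnfrsf4 and Cd4, whose level the split into classes holds down), and Tnfrsf4 and Xcl1 were also the 1 call each among costimulatory, CD8 lineage and tissue residency genes. Of these, Gbp2 was 1.66-fold higher (1.43 to 1.93) and Ccr2, a receptor that draws monocytes and effector T cells, 1.53-fold higher (1.38 to 1.70). Neither was called in the T cell subset. No member was called among 16 genes of proximal T cell receptor signalling, 11 measured early genes induced by that receptor, 18 cytokine receptor genes and 10 genes of MHC class I presentation. In the subset the early genes Irf8 (0.511-fold, 0.360 to 0.714) and Tnfrsf9 were called lower. Il2ra, the alpha chain of the interleukin 2 receptor, was called lower there as well, and Igfbp4 was the 1 naive gene called lower.

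By the same naming rule applied to the T cell subset, genes outside the lists were also higher in sample 2. Nrn1, a membrane-anchored neuritin gene of chronically stimulated T cells, stood at 25.1 against 11.8 CPM (2.14-fold, 1.46 to 3.15). Ifitm1, an interferon-induced membrane protein gene, stood at 147 against 85.1 CPM (1.73-fold). In the whole class 5 cells held 229 of 596 UMIs in sample 2 and 281 of 513 in sample 3, and without them Ifitm1 was 1.85-fold higher (1.57 to 2.19). Ier3, an immediate early gene, stood at 1.66-fold (1.30 to 2.13), Txndc15 at 1.61-fold (1.26 to 2.05), and Bid, which links death receptors to mitochondria, at 1.60-fold (1.19 to 2.17).

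The repertoire was described by the Trbv gene that led in each cell. Trbv12-1 led in 24.5% of 604 cells of sample 2 and 22.5% of 632 of sample 3, and Trbv29 in 18.4% and 15.2%. Trbv13-1 led in 10.6% and 14.4%, Trbv19 in 7.12% and 10.3%, and Trbv16 in 4.97% and 8.23%. In sample 4 Trbv12-1 led in 43.0% of 416 cells (38.2 to 47.9), above both. Barcodes in which 2 or more Trbv genes each reached 2 UMIs, a sign of barcodes that hold more than 1 T cell, were 10.4% (8.44 to 12.7) in sample 2 and 16.5% (14.1 to 19.1) in sample 3. Sample 3 had the higher median depth as well. Without such barcodes Xcl1 was 2.53-fold (2.18 to 2.95) and Ifng 2.53-fold (2.15 to 2.98) higher, Plk1 stood at 0.620-fold (0.475 to 0.806) and Mki67 at 0.670-fold (0.591 to 0.760), each on the same side of the rule as with them. Other genes crossed the rule. Satb1 at 0.685-fold (0.562 to 0.833) and Cd40lg at 1.41-fold (1.03 to 1.95) were no longer called, while Nusap1 at 0.640-fold (0.528 to 0.774) became called.

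Antibody counts on the same cells were sparse, with 588 in sample 2 and 587 in sample 3 over 138 antibodies. CD8a antibody gave 28 counts (18.6 to 40.5) and 25 (16.2 to 36.9). CD301b antibody, which binds the lectin encoded by Mgl2 on macrophages and dendritic cells, gave 18 counts in 9 cells (10.7 to 28.4) against 3 counts in 3 cells (0.619 to 8.77). Mgl2 itself stood at 56.4 against 7.41 CPM (7.61-fold, 5.29 to 11.3). Other antibodies to proteins of myeloid or antigen-presenting cells did not all follow. I-A/I-E antibody, which binds MHC class II, gave 7 counts against 10, while the MHC class II genes were higher in sample 2. XCR1 antibody gave 2 against 6, CD86 antibody 5 against 9 and F4/80 antibody 1 against 1. CD16/32 antibody gave 7 against 5 and CD11b antibody 4 against 1. The counting intervals overlap for each of these, so they do not tell which sample was higher. CD90.2 antibody, which binds a T cell surface protein, gave 25 counts (16.2 to 36.9) against 45 (32.8 to 60.2). CD27 antibody gave 3 (0.619 to 8.77) against 14 (7.65 to 23.5). These intervals overlap as well. Other antibodies to T cell proteins were level, with CD3 antibody at 6 against 5 and CD5 antibody at 18 against 17.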

How the data were processed

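Values come from 1 droplet library of hashtagged, sorted T cells. The authors deposited raw counts of UMIs (14811 genes, 5564 cells) and raw antibody counts (138 antibodies). The submitters' processing notes list Cell Ranger 3.1.0, Seurat 3.2.3 and mm10, without their roles. The authors' filters on cells and doublets, and their rules for hashtags and classes, are not given in the sources used here. The hashtag and T cell receptor libraries were not analysed here, and 0 barcodes were repeated.

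Counts were summed per class and hashtag sample. The CPM total left out 117 receptor and immunoglobulin genes (0.325% of UMIs). Levels have exact Poisson intervals, shares exact binomial (Clopper-Pearson) ones and ratios exact binomial ones conditional on both counts, all at 95%. A pseudocount of 5 CPM entered log2 ratios, not folds. Doublets were not removed. Members and lists (25 programme and 12 marker lists) were chosen with earlier results of these data known.

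The named genes are the 15 with the highest and the 15 with the lowest log2 ratio that reached 20 CPM, 100 UMIs and 5% of cells and whose interval did not hold 1, without receptor, mitochondrial, ribosomal and unnamed genes. Cd4, Cd8a, Cd8b1, Zbtb7b, Runx3 and each list's called or outermost members were added. The T cell subset and the genes named from it were chosen after seeing the data. So were Cxcl9, Ccl4, Ccl5, Ccl7, Ccl12, Chil3, Mrc1, Mgl2, Flt3, Xcr1, Gzmb, Prf1, Il7r, Tcf7, Pdcd1, Lag3, Tox, Ccl17, the Trbv genes and the antibodies.

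On simulated counts for this comparison, drawn UMI by UMI, the rule called 100% of 50 genes made 2-fold higher, 100% of 50 made 2-fold lower and 1.55% of 9983 unchanged genes. The changed genes were taken from those with at least 100 UMIs, and the draw held no spread between cells. These shares therefore do not cover changes in scarcer genes, or genes whose UMIs lie in a few cells. Alternatives were per-cell means, a filter on cell depth (1000 to 15000 UMIs), thinning, TMM scaling (edgeR 4.0.16), pseudocounts of 1 and 20 CPM, other minimums and folds, and sets of cells left out. Python 3.11.15, numpy 2.4.6, scipy 1.17.1 and pandas 2.3.3 were used.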

Additional observations from a re-analysis of the deposited data

How the results depend on the processing

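The count of genes called higher, 525, became 237 with cells thinned to 2000 UMIs, 162 without cells set apart by a wide rule on other cell types, 164 in cells with a UMI of Cd8a or Cd8b1, 118 in the T cell subset, 114 in that subset without cycling cells and 134 without cells with macrophage or monocyte markers. The count called lower, 105, stayed within 1.5 times (93 to 157) under the scalings and choices of cells. By 1.5-fold alone, without the interval, 812 genes were higher and 289 lower. In the same order the 34 programme members called higher became 20, 16, 14, 8, 10 and 17, with 18 at a minimum of 200 UMIs and 20 at 2-fold. The 2 called lower became 9, 9, 5, 14, 7 and 5, with 1 by per-cell means, 7 at 1000 to 15000 UMIs, 4 with TMM, 6 without cycling cells, 5 without cells with NK receptor markers, 7 without cells with 2 Trbv genes, 1 with Tdp cells added and 0 at 2-fold. The 29 markers of other cell types called higher became 1 under the wide rule, 11 in cells with a CD8 UMI, 0 in the T cell subset, 1 in it without cycling cells, 4 without macrophage marker cells and 19 at 200 UMIs. The 0 called lower became 1 without cycling cells, 2 in the subset without them and 3 by 1.5-fold alone. Of 8 cytokine and chemokine genes, 3 had a higher share of cells in sample 2, and 5 at 2 UMIs or thinned to 1000 UMIs. These alternatives keep other cells or minimums; the cause of each change was not tested.

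Over 122 genes and 16 alternatives, 1081 of 1690 log2 ratios stayed within their interval, 579 moved and 30 changed sign. Under the wide rule Cd68 was -0.16, H2-DMa -0.27, Zeb2 -0.28 and Oasl2 -0.85. In the T cell subset H2-DMa was -0.44, Zeb2 -0.22, Csf2 -1.40, Cxcl10 -0.45, Tnfrsf4 -0.15, Hk2 -0.19 and Oasl2 -0.27. Without its cycling cells H2-DMa was -0.63, Zeb2 -0.40, Ifitm3 -0.017, Csf2 -1.67 and Oasl2 -0.40. Without macrophage marker cells H2-DMa was -0.23, Cxcl10 -0.16 and Oasl2 -0.22. In cells with a CD8 UMI Ly86 was -0.21, Csf2 -1.37, Cxcl10 -0.51, Cxcl16 -0.45, Oasl2 -0.13 and Atf3 -0.39. Cd209a was -0.040 by per-cell means and -0.045 after thinning, and Klra7 was -0.0015 without cycling cells. Without the 5 richest cells Xcl1 was -0.48 and Il2 -0.14. The T cell subset, and the alternatives that leave out macrophage marker cells or the richest cells, were chosen after seeing the data.

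No paired analysis was possible because both samples are parts of 1 pooled library with no replicate, so leaving out replicates was not run either. Counting intervals leave out the spread between cells, mice and sorts. Genes near 20 UMIs and genes held by a few cells have imprecise ratios.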
